A study of Mus musculus with 38 samples.

Results

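The genes described here encode the junction and adhesion proteins that hold epithelial cells to each other and to the basement membrane, or that carry leukocytes onto vessels and tissue: claudins, cadherins, integrins, laminins, zonula occludens proteins and connexins. Members were chosen by gene symbol, with Cldn7 left out, and 58 of the 10547 genes in the count table matched. The members and the roles below were set with earlier results of these data known. They comprised 10 claudins, 8 cadherins, 19 integrin subunits, 9 laminin chains, 3 zonula occludens genes and 6 connexins, together with 3 genes whose symbols begin with Itgb but whose products are no integrin subunit (Itgb1bp1, Itgb3bp and Itgbl1). By general knowledge of where they are expressed, 22 were grouped as epithelial, 5 as leukocyte, 4 as endothelial and 8 as mesenchymal or neural, and the other 19 had no single typical cell type.

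The data came from formalin-fixed mouse liver profiled with the GeoMx digital spatial profiler, in which probes for the mouse transcriptome are released by light from a chosen area and counted by sequencing. WT mice and Trail Δmye mice, in which a conditional Tnfsf10 (Trail) allele is deleted by Cre recombinase under the myeloid Lyz2 promoter, received either control diet or 0.1% DDC (3,5-diethoxycarbonyl-1,4-dihydrocollidine), a hepatotoxin that blocks small bile ducts and provokes a ductular reaction. Mice were 6 to 8 weeks old, DDC or control diet was given in repeated rounds over 21 days, and livers were taken on day 22. In periportal regions of interest (ROIs) a PanCK+ segment, the stain for cholangiocytes, and an IBA1+ segment, the stain for macrophages, were collected, and in parenchymal ROIs an IBA1+ segment. The 38 segments lay in 23 ROIs: WT mice gave 3 control and 4 DDC PanCK+ segments, 2 control and 4 DDC periportal IBA1+ segments, and 1 control and 2 DDC parenchymal IBA1+ segments, whereas Trail Δmye mice gave 4 and 5, 4 and 5, and 2 and 2 of these. The Cre driver is active in macrophages, monocytes and neutrophils and not in cholangiocytes, so it does not target the cholangiocytes of the PanCK+ segments. Tnfsf10 itself was not analysed here, so the deletion was not checked in these segments. Which mouse a segment came from is not in the labels. The segments were therefore the replicates, several can share a mouse, and every p-value below is too small as a statement about mice.

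Claudins seal the space between neighbouring epithelial cells at the tight junction, and the composition of claudins sets which ions and how much water pass. Zonula occludens proteins tether them to actin, E-cadherin joins the same cells at the adherens junction, and connexins form channels that couple their cytoplasm. Integrins are pairs of an alpha and a beta chain: some anchor epithelia to laminin in the basement membrane, others bind fibronectin or vitronectin, and those built on the beta chain encoded by Itgb2 are restricted to leukocytes. In the liver, cholangiocytes carry a full junctional belt and rest on a laminin-rich basement membrane, hepatocytes are coupled by connexins, and sinusoids lack a continuous basement membrane.

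Several members lie next to each other in the genome, and the promoters of 5 members that the results below turn on are shown so that these pairs can be compared. Each is a stretch before the transcript start, written 5′ to 3′ on the gene's strand from RefSeq (GRCm38.p6), and capitals mark a searched motif. The stretches are chr5:134946935-134947184 on the minus strand for Cldn4, chr5:134985964-134986213 on the plus strand for Cldn3, chrX:139800558-139800807 on the plus strand for Cldn2, chr7:128062390-128062639 on the plus strand for Itgam and chr7:128129300-128129525 on the plus strand for Itgax. The stretch for Itgax was limited to the 226 bases outside the annotated gene and ends 24 bases short of the start used, and the others hold the 250 bases just before it.
Cldn4: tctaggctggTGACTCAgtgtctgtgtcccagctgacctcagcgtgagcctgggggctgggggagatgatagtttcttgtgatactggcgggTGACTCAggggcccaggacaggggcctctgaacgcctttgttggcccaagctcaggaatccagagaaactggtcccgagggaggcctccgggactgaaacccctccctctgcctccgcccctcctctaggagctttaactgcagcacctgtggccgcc
Cldn3: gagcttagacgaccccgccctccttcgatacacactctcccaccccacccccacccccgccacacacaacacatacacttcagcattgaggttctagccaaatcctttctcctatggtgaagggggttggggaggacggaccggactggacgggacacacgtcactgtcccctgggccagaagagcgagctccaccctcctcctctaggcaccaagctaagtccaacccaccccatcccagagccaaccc
Cldn2: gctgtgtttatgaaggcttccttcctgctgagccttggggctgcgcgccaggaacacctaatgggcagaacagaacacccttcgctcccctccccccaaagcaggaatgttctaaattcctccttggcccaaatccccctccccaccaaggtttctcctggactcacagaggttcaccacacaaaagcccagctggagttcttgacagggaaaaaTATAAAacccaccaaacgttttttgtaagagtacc
Itgam: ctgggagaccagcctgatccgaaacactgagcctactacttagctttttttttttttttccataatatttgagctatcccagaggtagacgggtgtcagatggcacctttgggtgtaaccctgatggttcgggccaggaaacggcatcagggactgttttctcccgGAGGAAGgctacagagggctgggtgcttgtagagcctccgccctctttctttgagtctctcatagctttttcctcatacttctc
Itgax: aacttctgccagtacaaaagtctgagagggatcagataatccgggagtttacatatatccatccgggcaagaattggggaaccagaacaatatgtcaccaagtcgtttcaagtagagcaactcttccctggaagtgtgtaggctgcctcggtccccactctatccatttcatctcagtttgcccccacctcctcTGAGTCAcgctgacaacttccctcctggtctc

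Cldn4 and Cldn3 were separated by 39.3 kb on chromosome 5, and Itgam and Itgax by 11 kb on chromosome 7, with Itgal 728 kb from Itgam on the same chromosome. Cldn4 held the AP-1 motif TGANTCA at 240 and at 158 bases before the start, whereas its neighbour Cldn3 held none of the motifs searched. Cldn2 had a TATA box (TATAAA) 35 bases before the start. Itgam had the letters GAGGAAG, bound by the myeloid factor PU.1, at 84 bases, and Itgax had an AP-1 motif at 56 bases. Of the 58 members 38 had an entry in the promoter table. On both strands of 250 bases, AP-1 was found in 3 of these 38 and in 6.75% of 32817 promoters, the PU.1 letters in 9 and in 10.6%, the TATA box in 2 and in 12.4%, and the grainyhead-like motif AACNGGTT in 1 and in 1.78%. A member was counted if any of its promoters held the motif, whereas the shares are over single promoters, so the numbers are not directly comparable. Such matches describe the letters and say nothing about binding.

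Depth differed widely and followed the groups. Total counts ran from 20319 to 836971 per segment, and the lowest value in the table was 1 count, which made up 27.2% of all values and was read as 1 count or fewer. In WT control PanCK+ segments 28 to 38 of the 58 members were at this lowest value, in WT DDC PanCK+ segments 12 to 22, in Trail Δmye control PanCK+ segments 15 to 23, and in Trail Δmye DDC PanCK+ segments 0. In periportal IBA1+ segments the numbers were 39 in both WT controls, 23 to 40 in WT DDC, 0 to 8 in Trail Δmye control and 0 to 4 in Trail Δmye DDC. In periportal segments of the same stain and diet every Trail Δmye segment was deeper than every WT segment of its kind, so genotype and depth cannot be told apart there, and many members of the WT segments sat at the limit of counting. The stains matched their labels by marker genes of each cell type: 10 of 10 cholangiocyte markers were higher and 10 of 10 macrophage markers lower in PanCK+ than in periportal IBA1+ segments, and 9 of 10 hepatocyte and 9 of 10 fibroblast markers were lower too. Segments were thus not pure, and a lower level in a segment cannot tell fewer cells of a type from less RNA per cell.

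**Figure D1:**
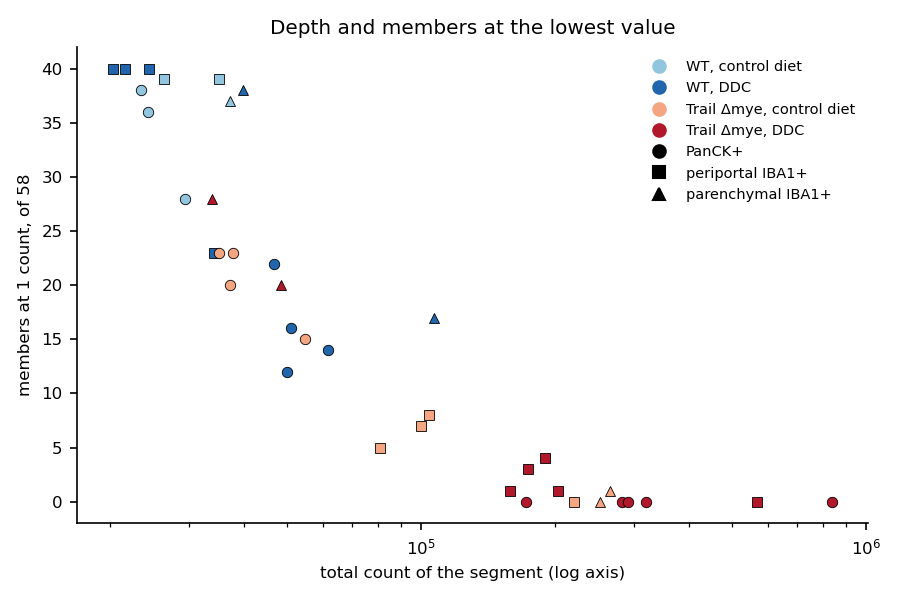
Number of the 58 members at the lowest value of 1 count (vertical axis) against the total count of the segment (horizontal, log axis) for the 38 segments, coloured by genotype and diet and shaped by stain and region. The 5 Trail Δmye DDC PanCK+ segments have no member at 1 count, whereas the 3 WT control PanCK+ segments have 28 to 38.

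The comparison of PanCK+ with IBA1+ segments asked which adhesion genes follow the biliary epithelium and which the macrophages. It included 16 PanCK+ and 15 IBA1+ segments of periportal ROIs across all 4 groups. Of the 58 members 22 were higher in PanCK+ segments, beside 6.55% of all genes, and 10 were lower, beside 9.28% of all genes; 26 did not pass the test (edgeR quasi-likelihood test, Benjamini-Hochberg adjusted over all genes). Of the 22 epithelial members 14 were higher and 0 lower, with a median log2 difference of 1.12, and 5 of 5 leukocyte members were lower, with a median of -1.02. The median over all genes was -0.06. The 37 members with an unadjusted p under 0.05 included all 32 called.

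Cdh1, which encodes E-cadherin, had the largest difference. Its Q3-normalized count (scaled to the 75th percentile of each segment) was 35.0 at the lowest, 77.0 at the median and 119 at the highest in PanCK+ segments, and 5.25, 10.5 and 26.3 in IBA1+ segments. The groups did not overlap, which held for no other member, and the log2 difference was 2.69 (SE 0.20, edgeR adjusted p = 2.09e-19). Overlap was not counted over all genes. In all 15 ROIs that held both segments the PanCK+ value was the higher.

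The claudins separated into those that followed the epithelium and those that did not. Cldn4, a barrier claudin, averaged 18.6 ± 14.1 (SD, n = 16) in PanCK+ and 5.06 ± 2.45 (n = 15) in IBA1+ segments, a log2 difference of 2.25 (SE 0.23). Cldn2, which forms pores for cations and water, averaged 23.4 ± 20.7 and 5.98 ± 3.84, a difference of 2.18 (SE 0.23). Cldn3, another barrier claudin, averaged 45.1 ± 19.6 and 10.8 ± 5.49, a difference of 2.08 (SE 0.21). In PanCK+ segments of control diet-fed mice Cldn4 and Cldn2 were at or near the lowest counts, and 3 and 5 of the 16 PanCK+ segments held 1 count of each. Cldn6 and Cldn8 were also higher, by 1.52 and 0.77. Cldn1, a claudin of hepatocytes and cholangiocytes, and Cldn5, the claudin of endothelium, did not pass the test, at -0.50 each (adjusted p = 0.0892 and 0.0800). Beneath the claudins, the zonula occludens genes Tjp3 and Tjp1 were higher, by 1.18 and 0.80.

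Among genes that fix the epithelium to its matrix, the laminin chain Lama5 averaged 21.9 ± 12.9 (n = 16) in PanCK+ segments and 5.62 ± 1.83 (n = 15) in IBA1+ segments, a log2 difference of 2.17 (SE 0.20, edgeR adjusted p = 5.02e-15). Lamb3, a chain of the laminin found under stratified epithelia, was higher by 1.06, and Lamc3 by 1.20. The receptors moved the same way: Itga3, the alpha chain of a laminin receptor, was higher by 1.99, Itgb6, which pairs with the product of Itgav and activates latent TGF-beta, by 1.64, Itgb4, the beta chain of hemidesmosomes, by 1.41, Itgav by 1.28 and Itga2, a collagen receptor chain, by 1.06. The alpha chain that pairs with Itgb4 was not called: Itga6 averaged 5.85 ± 3.46 and 5.94 ± 2.03, a difference of -0.15. Itgb1, the beta chain shared by most matrix receptors, also differed little between stains, at 22.2 ± 7.90 and 23.2 ± 6.58 with a log2 difference of -0.07 (SE 0.17, adjusted p = 0.923). Neither Lamb1 nor Lamc1, the beta and gamma chains of most laminins, passed the test.

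All 5 leukocyte integrin chains were lower in PanCK+ segments. Itgb2, the beta chain common to the leukocyte integrins, was 2.10 at the lowest, 4.73 at the median and 7.56 at the highest in PanCK+ segments, and 5.25, 13.8 and 28.5 in IBA1+ segments. The ranges overlapped up to 7.56. The 5.25 in IBA1+ segments stands for 1 count or fewer, so the lower end of the overlap is not known. In all, 9 of 16 PanCK+ and 2 of 15 IBA1+ segments held 1 count. The log2 difference was -1.66 (SE 0.18, edgeR adjusted p = 7.02e-13). The IBA1+ value was the higher in 13 of 15 ROIs, with the other 2 undecided because 1 count allows any lower value. Its alpha chain partners had smaller log2 differences, -1.22 (SE 0.17) for Itgam, the chain of the complement receptor of macrophages and neutrophils, -1.02 (SE 0.21) for Itgal, that of the lymphocyte receptor for ICAM, and -0.97 (SE 0.19) for Itgax, a marker of dendritic cells. Itga4, whose product pairs with that of Itgb1 and binds VCAM, differed by -0.75 (SE 0.21, adjusted p = 0.00478). Of the 16 PanCK+ segments, 9 held 1 count of Itgam, 5 of Itgal, 7 of Itgax and 7 of Itga4. With so many values at the lowest count, the order of these fitted differences is uncertain.

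Members of the other roles did not divide as cleanly. Itgb5, an alternative partner of the Itgav product in a vitronectin receptor, was lower in PanCK+ segments, at 14.7 ± 6.68 (n = 16) against 29.6 ± 14.4 (n = 15), so Itgav and 1 of its beta chains went in opposite directions. Cdh5, the cadherin of endothelial cells, differed by -1.04, Itgbl1 by -0.92, the muscle and nerve laminin chain Lama2 by -0.67 and Cdh2, or N-cadherin, by -0.60. On the other side Cdh6, Gja1 and Cdh3, all grouped as mesenchymal or neural, were higher in PanCK+ segments by 1.48, 0.83 and 0.65. Lama4, grouped as endothelial, was higher by 0.72. For each of Cdh6, Gja1 and Cdh3 the PanCK+ value exceeded the IBA1+ value in 13 of 15 ROIs, with 1 below and 1 undecided. Their role was a label from general knowledge and did not match the stain they followed here. The less clean division thus depends in part on how these genes were grouped. The hepatocyte connexins Gjb1 and Gjb2 did not pass the test, at -0.35 and -0.36. The remaining members, none called, had log2 differences between -0.60 and 0.54.

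**Figure D2:**
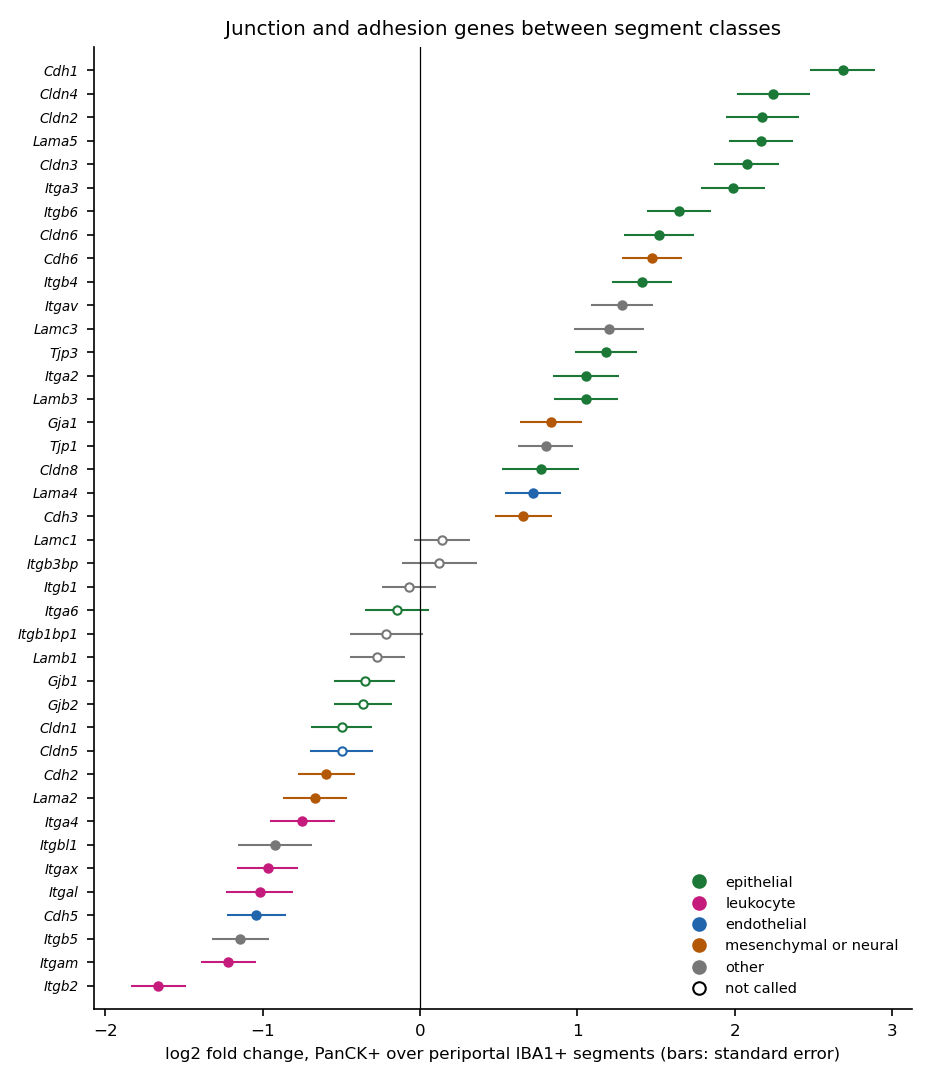
Log2 difference of PanCK+ over IBA1+ periportal segments (horizontal axis) with its standard error (bars) for members named in the text, coloured by role, filled where the adjusted p was under 0.05. All 5 leukocyte members lie left of 0, and Cdh1, at 2.69, lies farthest right, followed by Cldn4, Cldn2, Lama5 and Cldn3.

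The proteins that work with these members were read from lists of named partners. Of 30 junction partners 18 were higher in PanCK+ segments and 0 lower, among them Epcam (3.09), the desmosomal cadherin Dsg2 (2.71), F11r (1.95), cingulin, encoded by Cgn (1.83), and occludin, encoded by Ocln (1.43). Of 18 integrin linkers and counter-receptors 3 were higher and 5 lower: the epithelial kindlin Fermt1 was higher by 1.26 and the leukocyte kindlin Fermt3 lower, at -1.36. Of 11 basement membrane partners 4 were higher, including Agrn (2.18) and the laminin receptor Bcam (1.65), and 2 were lower, Nid1 (-0.81) and Col4a2 (-0.91).

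Read within ROIs, where both segments come from the same spot of the same liver, the 14 called epithelial members were higher in the PanCK+ segment in 8 to 15 of 15 ROIs and the 5 leukocyte members lower in 8 to 13. At most 3 ROIs went the opposite way for any of these 19 genes. Restricting the comparison to Trail Δmye mice called 30 members, with 535 of all 10547 genes higher and 718 lower. The shallower WT segments alone called 9 (Cdh1, Cldn2, Cldn3, Cldn4, Gja1, Itga3 and Itgav higher, Itgam and Itgb2 lower). Calls over all genes were fewer there too, with 116 higher and 164 lower. Thinning every segment to the smallest total left 14 calls, with 175 of all genes higher and 289 lower. A stricter filter on low counts kept 11 members and called 9, of which 8 were higher. Of the 1197 genes it kept, 316 were higher and 290 lower. The median log2 difference was 1.99 over the members kept and 0.02 over all genes kept. Members could pass this filter through a high PanCK+ level alone, so these 9 calls add no separate support. TMM scaling called 32 members but moved the split over all genes from 691 higher and 979 lower to 851 and 861.

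**Figure D3:**
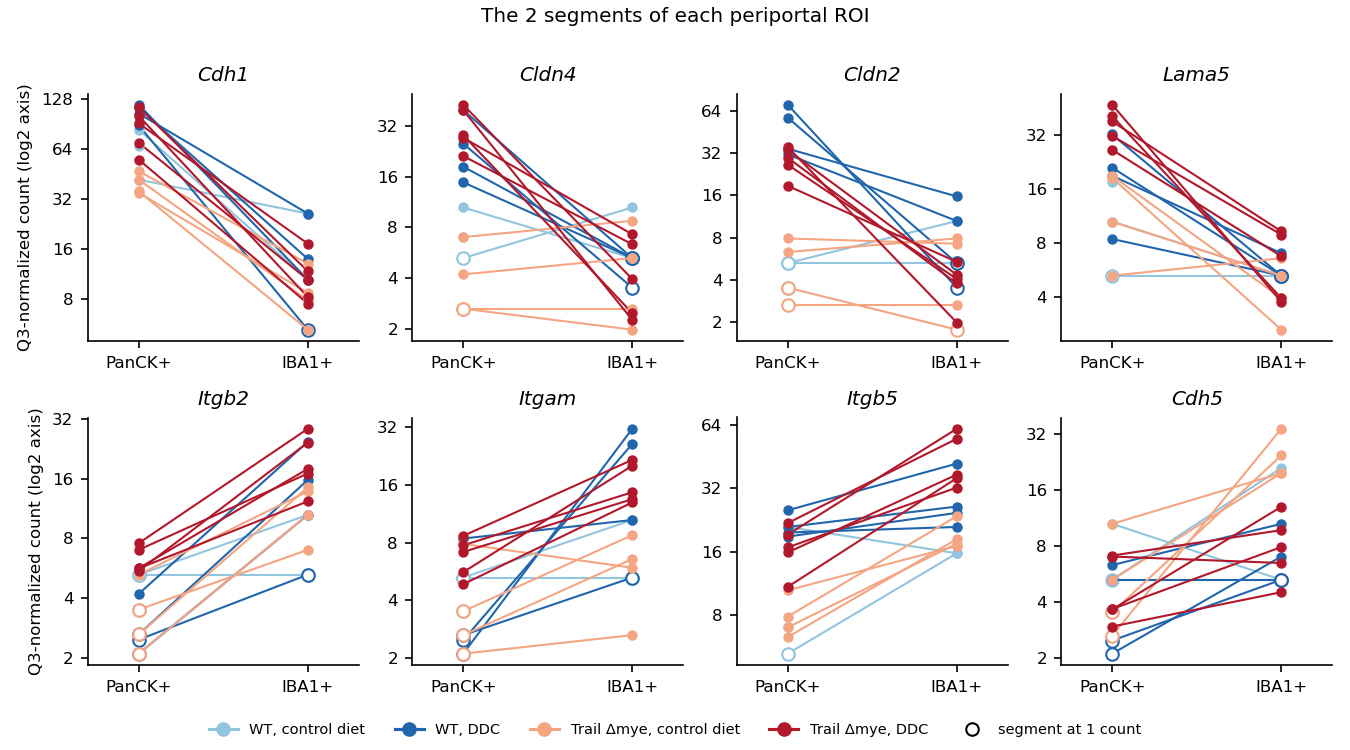
Q3-normalized count (log2 axis) of 8 members in the 2 segments of each of the 15 periportal ROIs that hold both, with a line per ROI coloured by genotype and diet and an open marker for a segment at 1 count. Every line of Cdh1 falls from PanCK+ to IBA1+, and the lines of Itgb2 and Itgb5 mostly rise, with 13 and 14 of 15 higher in IBA1+.

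DDC feeding was compared with control diet in the PanCK+ segments to ask how the adhesion genes of the ductular reaction change. In WT mice 2 members were higher, beside 0.493% of all genes, and 0 were lower, beside 0.417% of all genes. Cldn2 was 34.6, 31.5, 57.8 and 71.4 in the 4 DDC segments, and all 3 control segments were at 1 count (3.50, 5.25 and 5.25). With 3 counts per control segment as the upper limit of counting error, DDC was at least 3.49-fold higher, and the fitted difference was 3.39 (SE 0.66, edgeR adjusted p = 0.000449). Itgav was 22.2, 50.4, 47.3 and 71.4 against 17.5, 5.25 and 10.5, without overlap, a log2 difference of 2.0 (SE 0.55, adjusted p = 0.0460). Itga3 (1.88, edgeR adjusted p = 0.139), Cldn4 (1.71, 0.322) and Cdh1 (0.71, 0.829) were among further members that did not overlap between diets but did not pass the test. Of the 58 members 6 did not overlap, the 2 called included. The share over all genes without overlap was not counted. Across 22 alternative settings Cldn2 kept its call in all and Itgav lost it in 12, and limma called 4 members.

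In Trail Δmye mice 8 members were higher, beside 1.43% of all genes, and 1 was lower, beside 0.664% of all genes; none of the 9 overlapped between diets. The 8 were 3 claudins (Cldn4, Cldn2, Cldn3), 2 cadherins (Cdh1, Cdh6), 2 integrin chains (Itgb4, Itgav) and Lama5, and the 1 that fell was Lamc3. Of the 22 epithelial members 6 rose, with a median log2 difference of 0.81, against 0.41 over all members and 0.18 over all genes. No leukocyte member passed the test.

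Cldn4 was 28.3, 27.3, 42.9, 21.3 and 39.9 in the 5 DDC segments of Trail Δmye mice and 7.00, 2.63, 2.63 and 4.20 in the 4 controls, of which 2 were at 1 count. The difference was 2.97 (SE 0.49, edgeR adjusted p = 7.23e-06), and every DDC segment was above every control. Cldn2 was 33.9, 26.6, 35.6, 18.8 and 29.8 against 3.50, 2.63, 7.88 and 6.30, a difference of 2.43 (SE 0.47, adjusted p = 0.000256). Cldn2 and Itgav were the members called in both genotypes.

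Lamc3, a laminin gamma chain, went the other way: it was 6.46, 9.80, 5.02, 8.01 and 10.5 with DDC and 21.0, 21.0, 44.6 and 23.1 on control diet, a log2 difference of -1.79 (SE 0.31, edgeR adjusted p = 3.42e-05). In WT segments Lamc3 averaged 15.1 ± 9.66 (n = 4) and 21.6 ± 13.6 (n = 3), a difference that did not pass the test (-0.56, adjusted p = 0.973). Lama5 rose from 13.3 ± 6.58 (n = 4) to 36.7 ± 8.03 (n = 5) in Trail Δmye mice, so 2 laminin chains that both stood higher in PanCK+ than in IBA1+ segments moved in opposite directions with the diet.

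The other 5 members that rose had smaller log2 differences than Cldn4 and Cldn2. Itgb4 went from 3.37 ± 1.38 (n = 4, with 3 at 1 count) to 12.8 ± 3.66 (n = 5), Itgav from 12.2 ± 4.99 to 35.0 ± 9.18 and Cdh6 from 8.58 ± 6.35 to 22.7 ± 2.64. Cldn3 went from 20.8 ± 5.84 to 52.5 ± 12.8 and Cdh1 from 35.0, 47.3, 42.0 and 35.7 in the controls to 86.7 ± 23.9. Their log2 differences were 1.96, 1.54, 1.48, 1.28 and 1.11, with adjusted p-values from 0.0125 to 0.0494. The call of Cdh1 was lost in 19 of 22 alternative settings and that of Cldn3 in 9 of 22, whereas Cldn4 kept its call in all 22. Of the partners, Vcam1, an adhesion molecule that binds the Itga4 product, rose in both genotypes (2.43 in WT, adjusted p = 0.0367, and 1.56 in Trail Δmye, 0.0202), and Epcam (1.25), F11r (1.36) and perlecan, encoded by Hspg2 (1.48), rose in Trail Δmye mice.

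**Figure D4:**
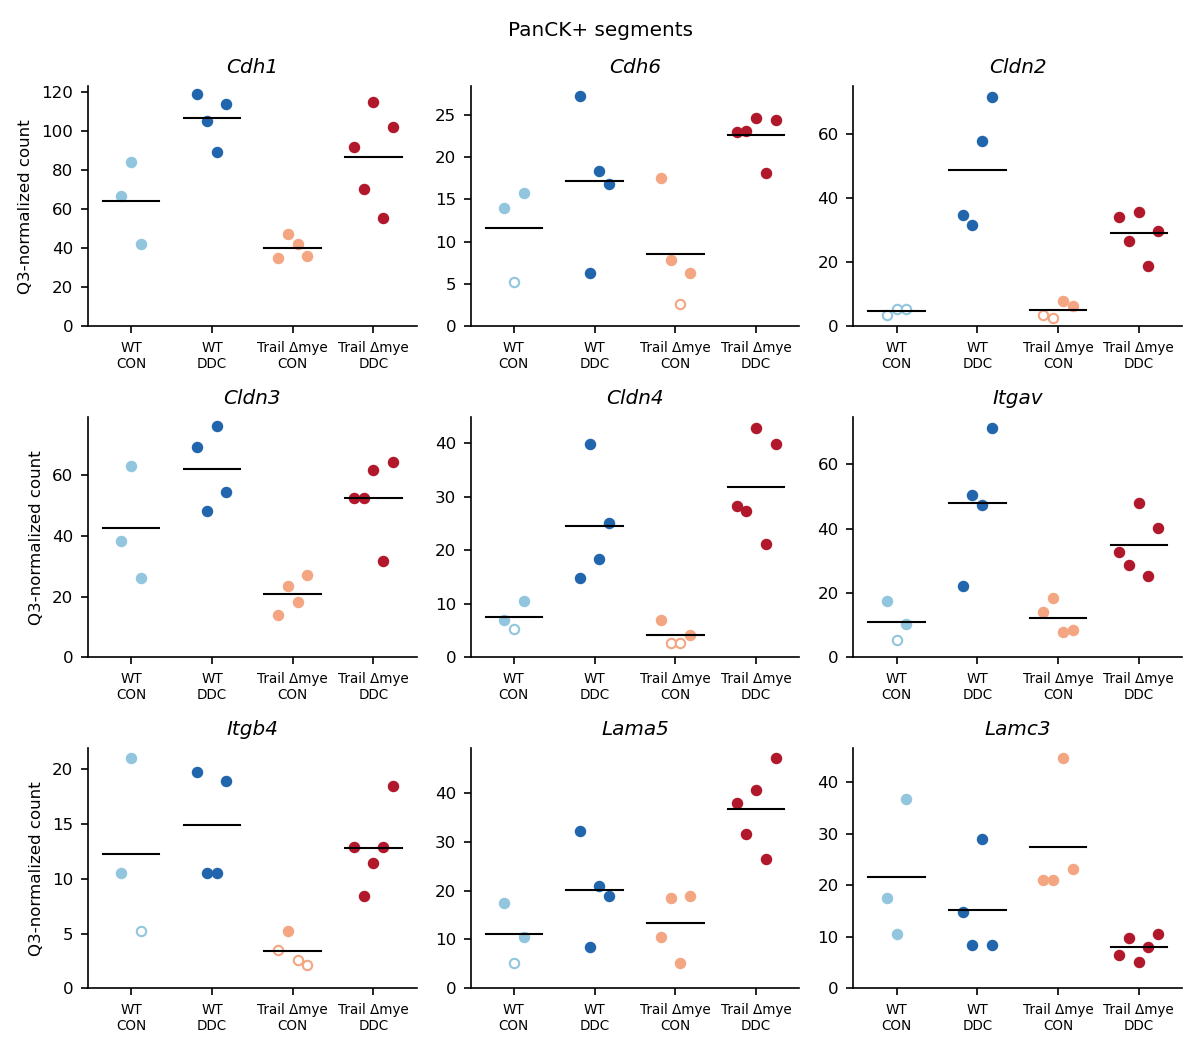
Q3-normalized counts of diet-responsive members in each PanCK+ segment (points, open where at 1 count) with the group mean (line), by genotype and diet; each panel has its own axis from 0. Cldn2 is at 1 count in all 3 WT control segments and between 18.8 and 71.4 in all 9 DDC segments, and Lamc3 falls in Trail Δmye mice.

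The count in Trail Δmye PanCK+ segments depended on scaling. With TMM or DESeq2 size factors, which moved the median over all genes from 0.18 to -0.06 and -0.15, 4 members were called, 2 higher (Cldn4 and Cldn2) and 2 lower (Cldn8 and Lamc3), and with all segments thinned to the smallest total Cldn4 alone was. Leaving out control ROI 028 left 3 calls and control ROI 029 left 4, whereas leaving out DDC ROI 035 gave 11. Cell content moved with the diet as well: the summed cholangiocyte markers ran from 147 to 221 in control and 238 to 402 in DDC segments of Trail Δmye mice (2 of 10 markers higher), and from 196 to 273 and 342 to 494 in WT mice (2 of 10 higher), with none of these markers at 1 count throughout a group. Summed hepatocyte markers ran from 2986 to 7962 against 999 to 3481 in Trail Δmye mice and from 3141 to 4932 against 1729 to 2939 in WT mice (2 of 10 lower in each). Fibroblast markers were higher too, 2 of 10 in Trail Δmye mice (sums 99.8 to 170 and 167 to 369) and 3 of 10 in WT mice (78.8 to 98.0 and 237 to 465). Macrophage markers were higher for 2 of 10 in Trail Δmye mice (52.5 to 113 and 108 to 162) and 0 of 10 in WT mice (59.5 to 84.0 and 113 to 158, with 4 of the 10 at 1 count in every WT control), and neutrophil markers for 1 of 5 in Trail Δmye mice (18.4 to 35.0 and 37.0 to 73.5) and 0 of 5 in WT mice (31.5 to 35.0 and 14.7 to 27.2, with 1 and 2 of the 5 at 1 count throughout). The part of these cells in the results was not tested.

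The same diet comparison in periportal IBA1+ segments called 0 members in WT mice, beside 0.142% of all genes higher and 1.04% of all genes lower. The edgeR test gave 1 member, Gjb2, at an unadjusted p under 0.05 (log2 difference -1.54), DESeq2 called 0 and limma 1. These 6 WT segments were among the shallowest of the series, with 20319 to 35207 counts. In Trail Δmye mice 3 of the 58 members were higher, beside 4.2% of all genes, and 3 lower, beside 5.18% of all genes. Both shares of the members were close to those of all genes. The 6 calls therefore describe single genes and show no response of the members as a set beyond that of all genes.

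Itgam rose in Trail Δmye IBA1+ segments: it was 13.0, 20.2, 21.7, 14.7 and 13.5 with DDC and 8.75, 6.57, 5.91 and 2.63 on control diet, without overlap, a log2 difference of 1.46 (SE 0.31, edgeR adjusted p = 0.000621). Itgb5 was 35.8, 32.3, 55.1, 37.3 and 61.5 against 17.5, 23.6, 17.1 and 18.4, a difference of 1.21 (SE 0.28, adjusted p = 0.00190). In WT segments the corresponding differences were 1.15 for Itgam and 0.83 for Itgb5, and neither passed the test (both adjusted p = 0.938). Lamb1, whose groups overlapped, differed by 1.03 (SE 0.30, edgeR adjusted p = 0.0198). Its call was lost in 8 of 21 alternative settings, among them TMM, DESeq2, limma and thinning. The other 4 leukocyte chains were not called in Trail Δmye mice: Itgax at 0.79 (adjusted p = 0.129), Itgb2 at 0.67 (0.163), Itga4 at 0.39 (0.609) and Itgal at -0.81 (0.0657). The median of the 5 was 0.67, beside 0.07 over all genes. Itgax and Itgb2 were called with filterByExpr and when DDC ROI 035 was left out. Itgal, which was lower in the main fit, was called when control ROI 026, DDC ROI 032 or DDC ROI 036 was left out.

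The 3 members that fell in Trail Δmye IBA1+ segments belong to endothelium and hepatocytes. Cdh5 was 13.0, 6.46, 7.88, 9.71 and 4.5 with DDC against 24.5, 19.7, 34.1 and 19.7 on control diet, a log2 difference of -1.54 (SE 0.25, edgeR adjusted p = 5.63e-06). Gjb1 was 12.4, 18.6, 14.4, 16.1 and 21.8 against 50.8, 32.8, 49.2 and 38.1, a difference of -1.37 (SE 0.29, adjusted p = 0.000424). Gjb2 averaged 7.38 ± 3.82 (n = 5) against 20.6 ± 3.45 (n = 4), a difference of -1.47 (SE 0.27). No DDC segment reached a control segment for any of the 3.

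Other cell types moved strongly in the same segments. All 10 hepatocyte markers were lower with DDC, their sum running from 9999 to 13766 on control diet and 1194 to 3655 with DDC, 7 of 10 fibroblast markers were higher (sums 89.3 to 272 and 668 to 1630), 3 of 10 macrophage markers were lower (563 to 867 and 378 to 898) 1 of 7 endothelial markers was lower (60.4 to 82.3 and 44.6 to 65.2) and 1 of 5 neutrophil markers was higher (25.6 to 44.6 and 44.3 to 68.0). Among basement membrane partners Col4a2 (1.82), Col4a1 (1.77) and Nid1 (1.72) rose and Col18a1 (-1.18) fell. The part of these cell types in the 6 called members was not tested. Thinning to the smallest total left 1 call, Itgb5, and calls rose to 9 when DDC ROI 035 or DDC ROI 036 was left out.

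**Figure D5:**
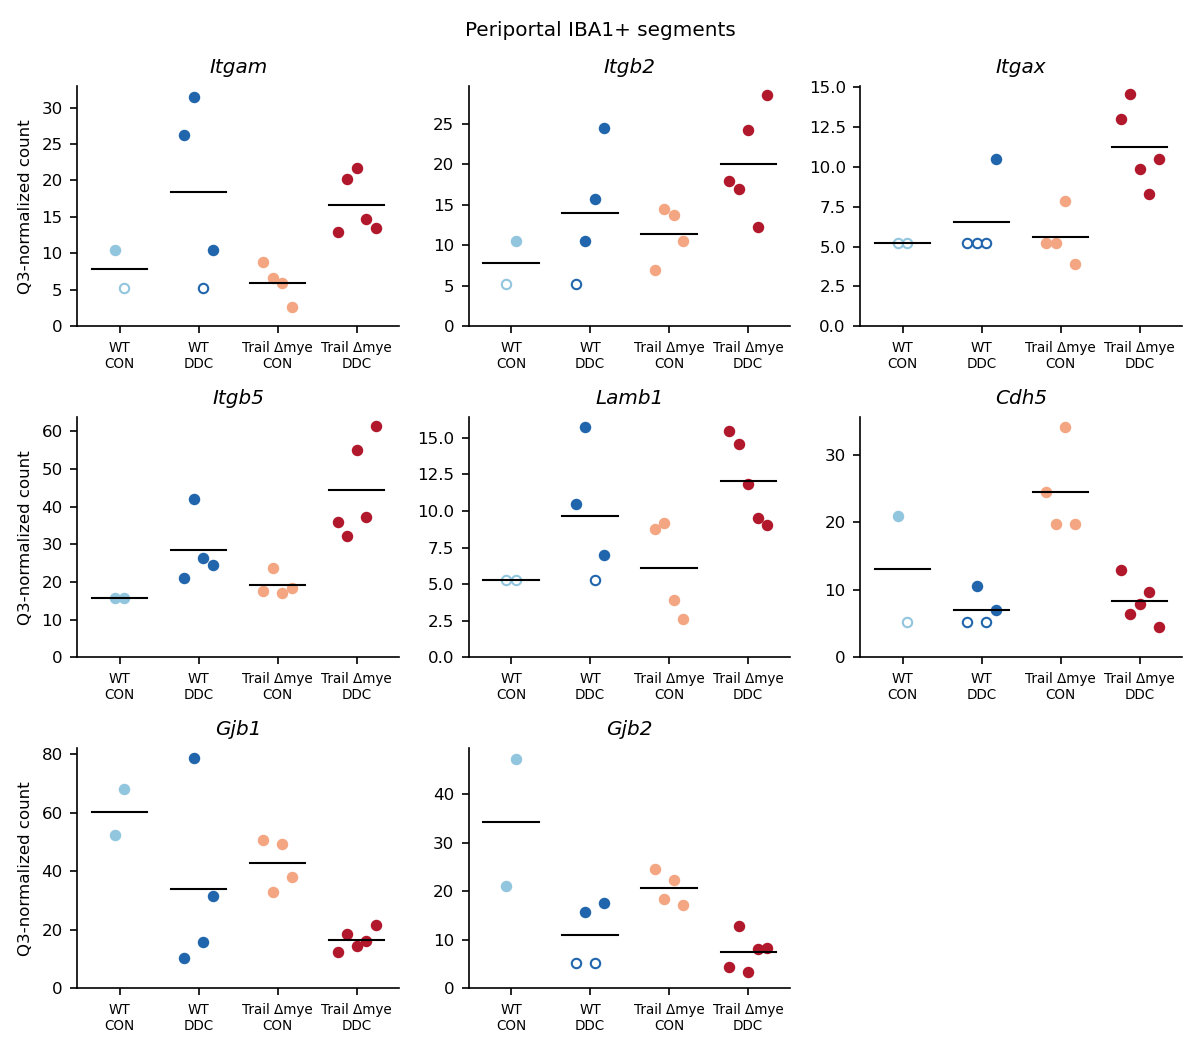
Q3-normalized counts of 8 members in each periportal IBA1+ segment (points, open where at 1 count) with the group mean (line), by genotype and diet; each panel has its own axis from 0. In Trail Δmye mice Itgam and Itgb5 rise with DDC and Cdh5, Gjb1 and Gjb2 fall, without overlap in any of these 5.

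Periportal IBA1+ segments were next compared with parenchymal ones, to ask whether macrophages near the ducts differ in adhesion genes from those between hepatocytes. Of the 58 members 1 was higher in periportal segments, beside 0.882% of all genes, and 0 were lower, beside 1.35% of all genes. The 1 was Itgam, at 2.63 to 31.5 with a median of 10.5 in 15 periportal segments and at 1.5 to 10.5 with a median of 3.50 in 7 parenchymal segments, a log2 difference of 1.38 (SE 0.33, edgeR adjusted p = 0.00696). The groups overlapped, and 3 parenchymal and 2 periportal segments were at 1 count. Its partner Itgb2 averaged 14.5 ± 7.03 and 18.8 ± 8.37 in the same segments and was not called. Itgam was no longer called without WT DDC parenchymal ROI 012, and leaving out Trail Δmye control ROI 026 added Itgbl1. Of the 10 macrophage markers 4 were lower in periportal segments, Cd5l (-1.88), Clec4f (-1.57), Marco (-1.15) and Vsig4 (-1.05), all known from resident liver macrophages, and none was higher. Of the 10 fibroblast markers 6 were higher and of the 10 hepatocyte markers 7 lower. The part of these cells in the result was not tested. Diet within the 7 parenchymal segments called 0 members, beside 0.294% of all genes higher and 0.465% of all genes lower, with 2 members at an unadjusted p under 0.05 and 0 called by DESeq2 or limma.

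Loss of Trail in myeloid cells was compared between genotypes on each diet. In DDC-fed PanCK+ segments 0 members passed the edgeR test, beside 0.0948% of all genes higher and 0.0569% of all genes lower in Trail Δmye mice; 6 had an unadjusted p under 0.05, DESeq2 called 1 and limma 0. The largest by p was Gja1, a widely expressed connexin, at 8.48, 9.10, 8.68, 10.2 and 4.62 in Trail Δmye and 17.3, 21.0, 18.4 and 18.9 in WT DDC segments. These groups did not overlap, which held for 3 of the 58 members, and the log2 difference was -1.13 (SE 0.31, edgeR adjusted p = 0.110). How many of all genes were without overlap was not counted, so the lack of overlap adds little. Gja1 was the member that DESeq2 and TMM scaling called, and it was also called when DDC ROI 035 was left out. Cldn2 stood at 29.0 ± 6.69 (n = 5) against 48.8 ± 19.1 (n = 4), and Lama5 at 36.7 ± 8.03 against 20.1 ± 9.73, neither past the test, though filterByExpr, which tests fewer genes, called both.

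In the other genotype comparisons the edgeR test called 0 members as well. DDC-fed IBA1+ segments had 2 members at an unadjusted p under 0.05, beside 0% of all genes called higher and 0.019% of all genes lower. Control diet-fed PanCK+ segments had 4, beside 0.0664% of all genes and 0.152% of all genes, and control diet-fed IBA1+ segments had 0, beside 0.0379% of all genes and 0.161% of all genes. DESeq2 and limma called 0 members in each of these 3.

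Whether diet acted differently in the genotypes was tested as an interaction. In PanCK+ segments 0 members passed the edgeR test, beside 0.104% of all genes higher and 0.00948% of all genes lower, with 4 at an unadjusted p under 0.05, among them Lamc3, Cldn6 and Itgb4. The interaction was -0.96 (SE 1.02) for Cldn2, 1.26 (SE 0.97) for Cldn4 and -1.24 (SE 0.57) for Lamc3 on the log2 scale, so the calls made in Trail Δmye mice alone were not shown to differ from WT, and the standard errors of these differences were wide. In periportal IBA1+ segments 0 members passed, beside 0.0569% of all genes higher and 0% of all genes lower, with 0 at an unadjusted p under 0.05. Itgam had an interaction of 0.32 (SE 0.94). DESeq2 and limma called 0 members in both.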

How the data were processed

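Segments were profiled with the NanoString GeoMx mouse Whole Transcriptome Atlas, and the submitters' processing notes name mm10 and bcl2fastq. The authors kept targets above the limit of quantitation in enough ROIs and deposited 2 tables: raw expected counts, used for all tests after rounding (3 genes were not whole), and Q3-normalized counts, a signal scaled by the authors to a 75th percentile of 10.5 in every segment, used for levels. Total counts per segment ran from 20319 to 836971. The lowest count was 1 and was read as 1 or fewer; 3 counts per segment stood as the upper limit of a group all at 1, and such limits cover counting error only.

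The members, roles and partner lists were chosen with earlier results of these data known. All 10547 genes were fitted in edgeR 4.0.16 (R 4.3.3; quasi-likelihood test, upper-quartile factors, 2-sided, Benjamini-Hochberg over all genes, called under 0.05), with group coefficients, and members were read from that table. The 13 comparisons had 26 residual degrees of freedom for stain, 17 for region, 12 for PanCK+, 11 for periportal IBA1+ and 4 for parenchymal segments. Alternatives were TMM factors, DESeq2 1.42.0, limma 3.58.1 on log2(Q3-normalized count + 1), filterByExpr, thinning, counts of 1 set to 0, an ROI block and leaving out each segment (for the stains, each ROI); fits within each genotype were added after seeing the data. The named members were 28 fixed by symbol and every member called, 40 in all, of which some are not reported here. The scripts were tested on simulated data. Figures used matplotlib 3.10.9 (Python 3.11.15). Whether replicate segments came from separate mice is not in the labels, so p-values measure the spread between segments.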

Additional observations from a re-analysis of the deposited data

Results flagged for a closer look

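Among 51 combinations of a gene and a group of 4 to 10 segments that were examined, 3 had 1 segment far from the others, and chance alone marks about 1 in 20 such groups. Cdh6 in the DDC-fed Trail Δmye PanCK+ segments was 18.1 in ROI 035, below the other 4, which ran from 23.0 to 24.7. Itgax in the DDC-fed WT periportal IBA1+ segments was 10.5 in ROI 013 and 5.25 in the other 3, which were all at 1 count. Lamc3 in the control diet-fed Trail Δmye PanCK+ segments was 44.6 in ROI 028, above the 21.0 to 23.1 of the other 3; its fall with DDC was still called when that segment was left out.

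Itgav differed in direction between groups. It was higher in the PanCK+ than in the IBA1+ segment of every DDC-fed ROI of both genotypes and lower in both control diet-fed WT ROIs with the 2 segments, together 11 ROIs. Over all 15 ROIs it was higher in 12, lower in 2 and undecided in 1, so no control diet-fed Trail Δmye ROI was lower. The control diet-fed WT values rest on 1 against 2 and 2 against 4 counts, and the difference between the groups was not tested.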

How the results depend on the processing

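Of 50 gene results recomputed under 1171 settings in all, 1036 kept their direction and their side of the threshold, 133 lost the call and 2 changed sign, and 11 of the 50 results kept the call in every setting. The 2 that changed sign were in the comparison of stains and were not called there: Lama4 at -0.0663 after thinning, and Itga2 at -0.0700 in WT segments alone. The number of members called between stains, 32, was 9 with filterByExpr, 14 after thinning and 9 in WT segments alone. After thinning and in WT segments alone calls over all genes fell as well, and filterByExpr tested 1197 genes. It was 2 with DESeq2, 2 with limma, 3 with filterByExpr and 0 after thinning for periportal against parenchymal segments (1 in the main setting). For diet in PanCK+ segments it was 4 with limma in WT mice (main 2), and in Trail Δmye mice (main 9) 4 with TMM factors, 4 with DESeq2 and 1 after thinning. For diet in periportal IBA1+ segments it was 1 with limma in WT mice (main 0), and in Trail Δmye mice (main 6) 10 with filterByExpr and 1 after thinning. For genotype in DDC-fed PanCK+ segments (main 0) it was 1 with TMM factors, 1 with DESeq2 and 2 with filterByExpr. Thinning removes counts and filterByExpr tests fewer genes; the cause of the other changes was not tested.

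Leaving out each ROI in turn gave 31 to 37 calls between stains. Leaving out each segment in turn gave 0 to 2 calls between regions, 1 to 2 for diet in WT and 3 to 11 in Trail Δmye PanCK+ segments, 5 to 9 for diet in Trail Δmye IBA1+ segments and 0 to 1 for genotype in DDC-fed PanCK+ segments, and 0 in the other comparisons. A replicate block for the ROI gave 33 calls between stains, the 32 and Cldn5. Same-numbered segments deviated together by more than 0.1 in 5 of 15 ROIs, all of DDC-fed Trail Δmye mice (r from -0.02 to 0.53 over 3089 genes, median 0.03), so the block stands as an alternative. Depth limits the WT segments most.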
